A study of Mus musculus with 9 samples.

Results

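Skin of bleomycin-injected mice that then received exosomes was compared with skin of mice that received neither, to see how far the transcriptome of treated skin still lay from that of normal skin. The comparison used 6 of the 9 libraries of the series, 3 EXO and 3 NORMAL, and every gene with at least 1 FPKM (fragments per kilobase of transcript, scaled to the mapped fragments of the library) in at least 3 of those 6. This kept 13038 of the 55382 genes in the table, and it used no difference between the groups. EXO mice were injected under the shaved back skin with 100 µL of bleomycin at 1 mg/mL for 28 days, and then received 15 µg of exosomes, small extracellular vesicles shed by bone marrow mesenchymal stem cells. NORMAL mice received PBS and no bleomycin. All were female C57BL/6 mice per the study's methods, whose ages were not given in the sources used here. Treatment lasted 7 days in the series description and in the study's own account of its RNA sequencing. The general methods of the study put killing later, without naming the sequenced mice. The bleomycin mice without exosomes (BLM, 3 libraries) entered no comparison, only the estimate of the spread, and their levels are given untested for some genes. Whether the libraries came from different mice is not stated in the sources used here, so p-values measure the spread between these libraries, which may be technical. EXO and NORMAL differ by both the bleomycin and the exosomes, and the contribution of each cannot be told apart here. Values are given for libraries 1, 2 and 3 of a group in that order, where library 3 is the one whose title carries no number, and an EXO and a NORMAL library of the same number are called a pair.

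Skin consists of an epidermis of dividing basal and differentiating suprabasal keratinocytes, hair follicles that cycle between growth and rest, a dermis of fibroblasts and collagen with resident macrophages, fat, and in the mouse a thin sheet of skeletal muscle. Bleomycin injected into the dermis is a standard way of producing scleroderma-like fibrosis, in which myofibroblasts lay down collagen under the control of TGF-beta. Vesicles from mesenchymal stem cells carry microRNAs and proteins, and they have been tested as a treatment for such fibrosis. In whole skin, fewer cells of a type and less RNA per cell cannot be told apart.

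Several libraries stood apart in their makeup. Libraries numbered 2 in both groups held transcripts of liver secretory genes: Rbp4, a retinol carrier, was at 1.65, 374.81 and 2.08 FPKM in EXO skin, against 1.26, 2321.94 and 1.99 FPKM in NORMAL skin. The 22 hepatocyte genes of a list chosen after these values were seen summed to 18.4, 785.6 and 24.5 FPKM in EXO skin, against 7.4, 4721.9 and 9.1 FPKM in NORMAL skin, yet Apoa1, Apoa2, Apoc3, Serpina1a and Ahsg, which hepatocytes make in quantity, stayed at or under 0.55 FPKM in all 6 libraries. Ribosomal RNA took 0.179%, 0.957% and 0.334% of all FPKM in EXO skin, against 0.105%, 15.6% and 1.06% in NORMAL skin. Skeletal muscle transcripts took 13.9%, 2.03% and 4.72% in EXO skin, against 18.5%, 11.5% and 2.97% in NORMAL skin. Mitochondrially encoded transcripts took 34.4% in EXO library 2 and 18.7% to 22.7% in the other libraries. The groups overlapped in each of these shares (exact two-sided permutation p = 1.0 for hepatocyte genes, 0.5 for ribosomal RNA, 0.6 for muscle and 1.0 for mitochondrial transcripts, where 3 libraries against 3 cannot go below 0.1). NORMAL library 3 held inner root sheath transcripts of growing hair follicles, with Krt71 at 3.48, 0.97 and 1.01 FPKM in EXO skin, against 0.33, 0.49 and 49.67 FPKM in NORMAL skin. The files give no counts, but the smallest frequent step between low FPKM values put NORMAL library 2 at the lowest depth of the 6. The 8 skin markers were present in every library, with Krt5, the keratin of basal keratinocytes, at 2382.26, 2256.98 and 4548.62 FPKM in EXO skin, against 1563.17, 389.74 and 3332.14 FPKM in NORMAL skin. The part of these differences in the results below was not tested, and list medians are also given without the libraries numbered 2.

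**Figure D1:**
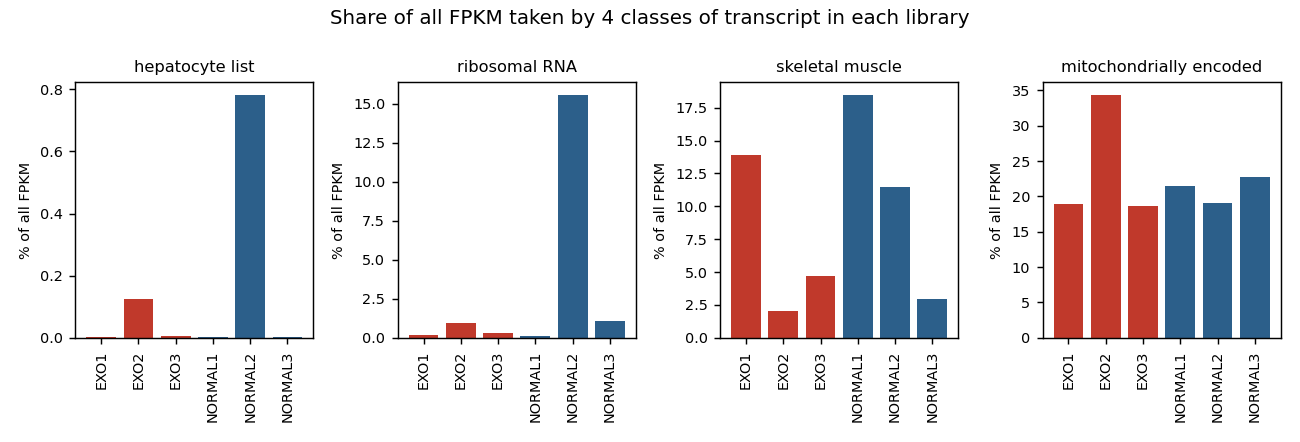
Share of all FPKM (vertical axes, %) taken by the hepatocyte list, ribosomal RNA, skeletal muscle and mitochondrially encoded transcripts in each EXO (red) and NORMAL (blue) library. Hepatocyte genes reach 0.124% in EXO library 2 and 0.783% in NORMAL library 2, and ribosomal RNA reaches 15.6% in NORMAL library 2.

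The smallest p of the comparison belonged to a copy of Plac9 (placenta-specific 9, a gene for a small secreted protein), which lay lower in EXO skin and which the annotation holds in 3 copies on chromosome 14. The annotated transcripts of Plac9a and Gm9780 were identical over 1394 bases, those of Plac9a and Plac9b over 1040 bases, and those of Gm9780 and Plac9b over 885 bases, with 0 differences in each case. Reads from these shared bases cannot be told apart between the copies, and the values of single copies are uncertain. The windows around their transcription starts, 250 bases before and 50 after (RefSeq, GRCm38.p6), are shown because the copies moved together. The window of Gm9780 and that of Plac9b were identical, and the window of Plac9a shared a run of 222 bases with them, which is in capitals. Plac9a is on the minus strand at chr14:25902844-25903143, Gm9780 on the minus strand at chr14:26042688-26042987 and Plac9b on the minus strand at chr14:26182302-26182601.
Plac9a: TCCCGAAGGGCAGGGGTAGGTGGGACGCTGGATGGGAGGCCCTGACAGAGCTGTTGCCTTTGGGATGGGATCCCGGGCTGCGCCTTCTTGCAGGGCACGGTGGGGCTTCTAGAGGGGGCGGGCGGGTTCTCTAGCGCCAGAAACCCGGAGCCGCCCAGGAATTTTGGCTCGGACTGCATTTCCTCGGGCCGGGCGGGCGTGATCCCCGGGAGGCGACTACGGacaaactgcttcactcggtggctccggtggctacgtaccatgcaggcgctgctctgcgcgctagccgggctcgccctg
Gm9780 and Plac9b: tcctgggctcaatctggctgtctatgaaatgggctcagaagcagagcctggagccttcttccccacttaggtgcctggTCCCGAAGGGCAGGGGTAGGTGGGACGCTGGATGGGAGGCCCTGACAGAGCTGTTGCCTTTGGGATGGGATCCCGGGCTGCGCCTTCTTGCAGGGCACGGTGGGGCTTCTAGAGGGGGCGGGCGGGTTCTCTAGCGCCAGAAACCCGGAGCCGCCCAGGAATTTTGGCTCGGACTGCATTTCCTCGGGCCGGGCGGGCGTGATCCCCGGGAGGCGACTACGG

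Summed over the 3 copies, Plac9 stood at 7.34, 21.59 and 7.03 FPKM in EXO skin, against 51.71, 117.46 and 59.25 FPKM in NORMAL skin. Every EXO library lay below every NORMAL library, with means of 12 ± 8.32 FPKM in EXO and 76.1 ± 36.0 FPKM in NORMAL skin (SD, n = 3 each). The log2 ratio of EXO to NORMAL was -2.66, -2.39 and -2.91 in pairs 1, 2 and 3. The copy named Plac9a was at 1.14, 0 and 0 FPKM in EXO skin, against 9.54, 9.01 and 11.9 FPKM in NORMAL skin. Plac9b was at 2.08, 10.4 and 2.28 FPKM in EXO skin, against 20.8, 54.74 and 19.03 FPKM in NORMAL skin. Gm9780 was at 4.12, 11.19 and 4.75 FPKM in EXO skin, against 21.37, 53.71 and 28.32 FPKM in NORMAL skin. All 3 copies fell in a fit that compared libraries within their number, the replicate block (limma, a linear model fitted across genes, with p adjusted over all 13038: adjusted p = 0.0311 for Plac9a, 0.0311 for Plac9b and 0.0464 for Gm9780), and none passed without the block (adjusted p = 0.169, 0.997 and 0.997). The block on the 6 EXO and NORMAL libraries alone, without BLM, called 0 genes (smallest adjusted p 0.234, 972 genes at an unadjusted p under 0.05), and the block after rescaling without mitochondrial, ribosomal RNA and muscle transcripts kept only Plac9b of the 3 (limma, adjusted p = 0.0447). The neighbouring Tmem254 copies, which interleave with Plac9, summed to 18.87, 17.07 and 61.99 FPKM in EXO skin, against 40.24, 18.38 and 97.58 FPKM in NORMAL skin, and these values overlapped (exact permutation p = 0.6).

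Atp2b4 (GRCm38 chromosome 1, 133699457 to 133801041, minus strand), a plasma membrane pump that exports calcium, moved the other way. It stood at 9.55, 15.05 and 24.0 FPKM in EXO skin, against 0.51, 0.31 and 2.9 FPKM in NORMAL skin, without overlap. The difference on the log2(FPKM + 1) scale was 3.03 (SE 0.49), and it was 2.8, 3.61 and 2.68 in the 3 pairs and 2.74 without the libraries numbered 2. Atp2b4 rose in the fit with the block (limma, adjusted p = 0.0311) and not without it (adjusted p = 0.215), nor with the block on the 6 EXO and NORMAL libraries alone (0.234) or with the block after rescaling without mitochondrial, ribosomal RNA and muscle transcripts. In BLM skin it was at 1.01, 0.46 and 1.13 FPKM, so every BLM and every NORMAL library lay below the lowest EXO library. BLM skin did not lie near NORMAL skin for every named gene, and such BLM levels are given below.

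**Figure D2:**
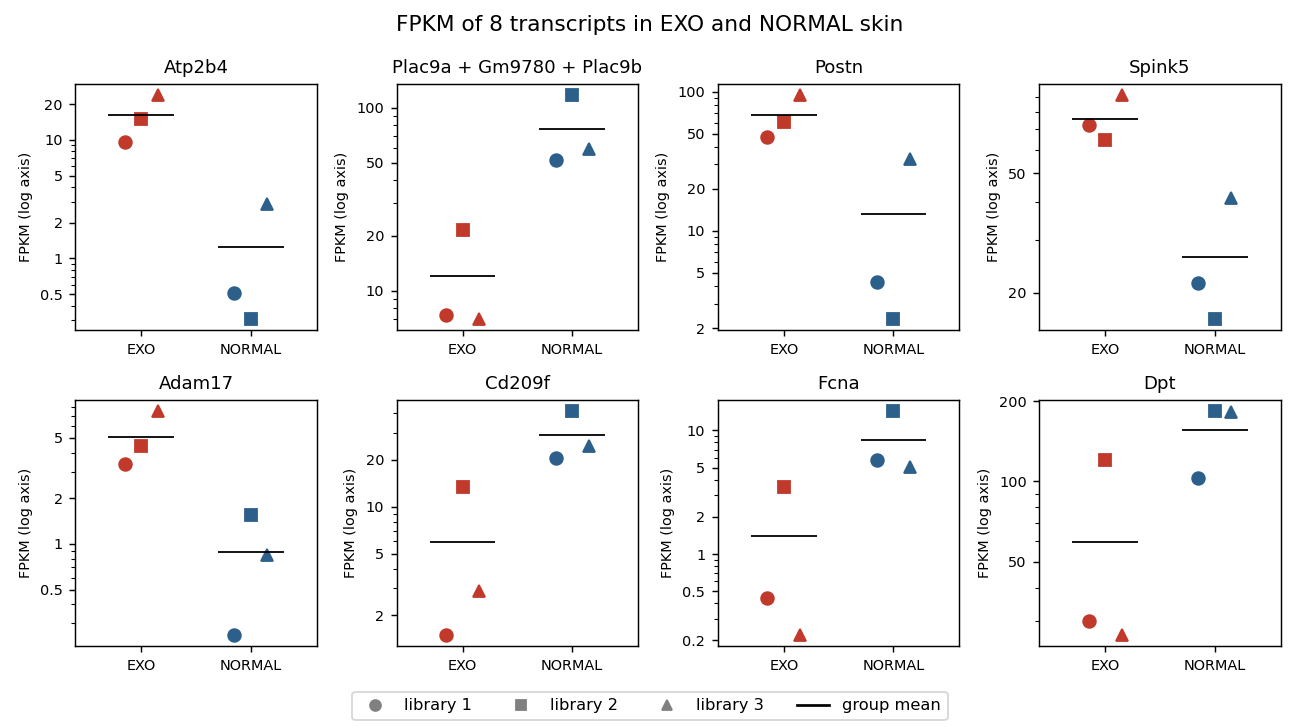
FPKM of 8 transcripts (vertical log axes) in the 3 EXO libraries (red, left) and the 3 NORMAL libraries (blue, right), with the library number as the shape of the point and the mean as a line. The 3 Plac9 copies are drawn as their sum, and EXO and NORMAL points do not overlap for Atp2b4, Plac9, Postn, Spink5, Adam17, Cd209f and Fcna, while EXO library 2 of Dpt, at 120.77 FPKM, lies above NORMAL library 1, at 103.3 FPKM.

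Those 4 gene entries were the whole result of the blocked fit at an adjusted p of 0.05, 1 higher and 3 lower in EXO of 13038 tested (0.0307%). Without the block 0 genes passed (0%), the smallest adjusted p being 0.169, although 331 had an unadjusted p under 0.05. An equal share of p-values would put 652 genes there. With the block 1083 did. Neither fit called any gene (0 and 0) when the libraries numbered 2 were left out, where 241 genes had an unadjusted limma p under 0.05 without the block.

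**Figure D3:**
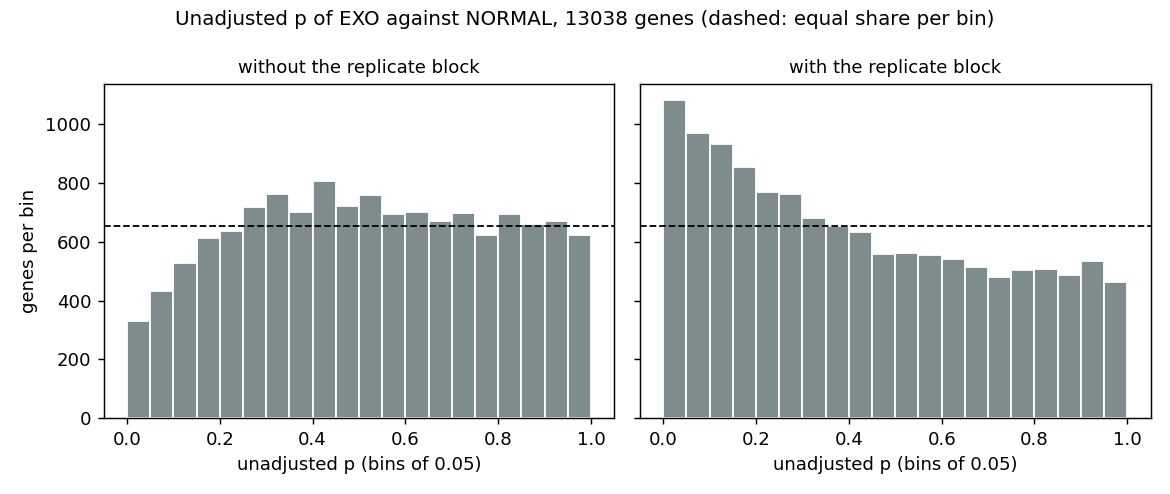
Number of genes (vertical axis) per bin of 0.05 of the unadjusted limma p (horizontal axis) for EXO against NORMAL, without the block at left and with it at right, where the dashed line marks an equal share per bin. The lowest bin holds 331 genes without the block, under the line at 652, and 1083 with it.

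The study's own thresholds, an unadjusted p under 0.05 and a log2 difference over 1 in size, selected 186 genes higher (1.43%) and 52 lower (0.399%) in EXO skin without the block, and 400 higher (3.07%) and 78 lower (0.598%) with it. The count without the block moved with single libraries. It was 1450 without NORMAL library 3, where Atp2b4 and Postn also passed the adjusted threshold (limma, adjusted p = 0.0367 each), and 130 without NORMAL library 2. Without the libraries numbered 2 the thresholds selected 119 higher (0.913%) and 87 lower (0.667%), so the share of higher genes was 57.8% there against 78.2% over all libraries. Over all genes 8900 lay higher and 4138 lower in EXO skin, with a median of 0.19 on the log2 scale and of 0.18, 0.4 and 0.08 in the 3 pairs. Quantile normalisation and median-ratio scaling brought this median to 0.00 and -0.03, and the share of higher genes at the study's thresholds to 59.6% and 54.5%. EXO values all lay above NORMAL values for 606 genes (4.65%) and all below for 131 genes (1.00%). The 3 pairs differed in the same direction for 3720 genes higher (28.5%) and 757 lower (5.81%), and by more than 1 on the log2 scale in all pairs for 37 higher (0.284%) and 18 lower (0.138%).

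A gene that missed the threshold was seldom shown to be alike in both groups. The 95% confidence interval of the log2 difference lay within -1 and 1 for 2224 genes (17.1%) without the block, with a median half-width of 0.98, and for 5509 genes (42.3%) with it. For most genes a difference of more than 2-fold in at least 1 direction therefore remained within the error.

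Most tested genes of the epidermis lay higher in EXO skin, without any that passed the adjusted threshold. The 60 epidermal genes together took 1.64%, 1.3% and 3.33% of all FPKM in EXO skin, against 1.01%, 0.226% and 2.35% in NORMAL skin, and these shares overlapped (exact permutation p = 0.4). Of 15 tested genes of basal keratinocytes and the basement membrane all 15 lay higher, with a median log2 difference of 1.08 (0.48, 2.18 and 0.55 in the pairs, 0.53 without the libraries numbered 2 and 0.5 without NORMAL library 2) beside 0.19 over all genes. In every pair 12 of the 15 lay higher, beside 28.5% of all genes. In the blocked fit 9 of the 15 reached the study's thresholds, beside 3.07% of all genes, and none did without the block. Col17a1, a collagen of the hemidesmosomes that anchor basal cells, stood at 183.7, 269.3 and 434.36 FPKM in EXO skin, against 115.39, 46.69 and 258.29 FPKM in NORMAL skin. Lamb3, a laminin chain of the same junction, was at 19.07, 25.56 and 38.46 FPKM in EXO skin, against 12.66, 3.93 and 22.6 FPKM in NORMAL skin. Both genes overlapped between the groups through NORMAL library 3, and in both every pair was higher in EXO.

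Suprabasal and cornified envelope genes gave a median of 0.79 over 34 tested, 28 higher and 6 lower (0.62, 1.57 and 0.07 in the pairs, and 0.36 without the libraries numbered 2). The study's thresholds selected 5 of them without the block and 11 with it, all higher, beside 1.43% and 3.07% of all genes, and the median was 0.22 without NORMAL library 2. Cdsn, the corneodesmosome adhesion protein, was at 83.13, 44.31 and 70.49 FPKM in EXO skin, against 28.75, 9.86 and 49.48 FPKM in NORMAL skin, with an overlap of EXO library 2 and NORMAL library 3. Flg2, a filaggrin-like barrier protein, was at 2.03, 2.03 and 4.06 FPKM in EXO skin, against 0.96, 0.56 and 0.11 FPKM in NORMAL skin, without overlap. Among genes of the wounded epidermis 8 of 9 lay higher, with a median of 0.95 that was 1.21, 1.52 and 0.2 in the pairs, 0.58 without the libraries numbered 2, 0.17 without NORMAL library 2 and 1.75 without NORMAL library 3. The study's thresholds selected 0 of them without the block and 4 with it, beside 3.07% of all genes. Krt6b, a keratin induced at wound edges, was at 7.88, 3.44 and 17.72 FPKM in EXO skin, against 2.58, 1.01 and 7.9 FPKM in NORMAL skin, with EXO libraries 1 and 2 below NORMAL library 3.

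Some inhibitors of epidermal proteases were among the genes that the rule named for small p and EXO values all above NORMAL values, as were 4.65% of all genes. Spink5, the kallikrein inhibitor LEKTI, stood at 72.55, 64.46 and 91.27 FPKM in EXO skin, against 21.53, 16.4 and 41.23 FPKM in NORMAL skin. Its log2 difference was 1.58 (SE 0.42) and its pairs all pointed the same way, but limma gave an adjusted p of 0.997, and of 0.318 with the block. Wfdc3, which has the fold of a protease inhibitor, was at 69.66, 51.35 and 59.88 FPKM in EXO skin, against 27.8, 15.36 and 27.79 FPKM in NORMAL skin. Serpinb11, a clade B serpin, was at 41.67, 38.56 and 97.3 FPKM in EXO skin, against 18.54, 12.14 and 26.02 FPKM in NORMAL skin. None of these 3 overlapped between the groups, and in BLM skin they were at 21.56, 16.38 and 27.44, at 15.44, 10.03 and 10.5 and at 13.25, 11.44 and 12.53 FPKM, near or below NORMAL. A list of 25 epidermal proteases and inhibitors, assembled after these values were seen, had 15 tested members, 12 higher and 3 lower, with a median of 0.53. This median was 0.26 without the libraries numbered 2, 0.06 without NORMAL library 2 and 1.12 without NORMAL library 3.

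Genes of the hair follicle bulge, where the follicle stem cells reside, lay higher for 22 of 23 tested, with a median of 0.93 (0.8, 1.69 and 0.49 in the pairs, 0.54 without the libraries numbered 2 and 0.51 without NORMAL library 2). The study's thresholds selected 3 of them as higher without the block and 10 with it, beside 1.43% and 3.07% of all genes. Those 3 were Postn, Lgr6 and Grem1, each of which is also counted in another list below. Postn, the matricellular protein periostin, was at 47.17, 60.56 and 94.87 FPKM in EXO skin, against 4.33, 2.34 and 33.03 FPKM in NORMAL skin, with a log2 difference of 2.96 (SE 0.74, limma adjusted p = 0.997, and 0.258 with the block). Lgr6, a receptor for R-spondins on epidermal stem cells, was at 7.89, 13.1 and 27.1 FPKM in EXO skin, against 5.52, 1.74 and 7.74 FPKM in NORMAL skin. Both sets of values were free of overlap, Lgr6 by a narrow margin. Hair shaft genes had 7 of 32 listed members tested, 6 lower and 1 higher, with a median of -0.61 that was -0.05, 0.06 and -1.48 in the pairs, -0.85 without the libraries numbered 2 and 0.46 with a filter at 5 FPKM. The member at the study's thresholds was the higher one, Krt32, a hair keratin at 7.8, 9.23 and 11.36 FPKM in EXO skin, against 3.71, 0.98 and 8.59 FPKM in NORMAL skin (log2 difference 1.21, SE 0.55). Among the lower ones was Krt36, also a hair keratin, at 0.18, 1.05 and 0.21 FPKM in EXO skin, against 0.38, 1.78 and 13.77 FPKM in NORMAL skin. The high value is that of the NORMAL library with inner root sheath transcripts.

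Genes of the sebaceous gland (13 of 15 higher, median 0.66), cholesterol synthesis (22 of 23 higher, median 0.53) and the cell cycle (29 of 30 higher, median 0.56) also lay mostly above the median of all genes. All 3 pairs were higher for 7, 16 and 21 of their genes, beside 28.5% of all genes, and with the block 2, 2 and 0 reached the study's thresholds as higher, beside 3.07%. Without the libraries numbered 2 the medians were 0.94, 0.55 and 0.43. Acsbg1, an acyl-CoA synthetase of lipid-producing cells, was at 38.84, 39.32 and 137.63 FPKM in EXO skin, against 15.67, 8.64 and 81.43 FPKM in NORMAL skin. Idi1, an isomerase of the mevalonate pathway, was at 6.09, 1.95 and 14.44 FPKM in EXO skin, against 2.99, 0.12 and 1.06 FPKM in NORMAL skin. Cdt1, which licenses replication origins, was at 2.99, 3.98 and 3.56 FPKM in EXO skin, against 1.97, 1.58 and 1.36 FPKM in NORMAL skin, without overlap. The median of the sebaceous list turned to -0.32 and that of the cholesterol list to about 0 when EXO library 3 was left out.

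Transcripts of resident macrophages lay lower in EXO skin. Cd209f, a C-type lectin related to human DC-SIGN, was at 1.49, 13.5 and 2.88 FPKM in EXO skin, against 20.71, 41.1 and 24.66 FPKM in NORMAL skin (log2 difference -2.46, SE 0.69). Its relative Cd209g was at 0.6, 5.7 and 0.86 FPKM in EXO skin, against 8.52, 16.3 and 10.34 FPKM in NORMAL skin. Cd209b, a further member, was at 0.49, 1.61 and 0.34 FPKM in EXO skin, against 2.37, 5.4 and 7.97 FPKM in NORMAL skin. The rule chose these 3 for values that did not overlap. Fcna, the secreted lectin ficolin A of the complement system, followed the same pattern at 0.44, 3.5 and 0.22 FPKM in EXO skin, against 5.78, 14.26 and 5.1 FPKM in NORMAL skin (-2.11, SE 0.55). With limma all 4 genes had an adjusted p of 0.997, and of 0.256 for Fcna, 0.258 for Cd209f, 0.258 for Cd209g and 0.389 for Cd209b with the block. In BLM skin Fcna was at 0.72, 2.33 and 2.02 FPKM, within the EXO range. Cd209f was at 3.4, 14.07 and 16.72 FPKM and Cd209g at 1.88, 4.48 and 5.59 FPKM in BLM skin, below the lowest NORMAL library. Cd209b, at 0.42, 3.07 and 2.67 FPKM in BLM skin, overlapped with NORMAL skin.

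A list of 15 such genes, assembled after seeing these values, had 12 tested members, all lower in EXO skin, with a median of -1.35 (-1.05, -0.75 and -2.1 in the pairs). The study's thresholds selected 5 of the 12 without the block and 8 with it, beside 0.399% and 0.598% of all genes. The list holds Cd209b, Cd209f, Cd209g and Fcna, which were picked for low and separate EXO values. Its counts and medians therefore describe that choice and are no test. The median was -1.61 without the libraries numbered 2, and between -1.37 and -1.56 under the 4 other scalings. Folr2, a folate receptor of tissue-resident macrophages, was at 3.18, 13.25 and 2.01 FPKM in EXO skin, against 9.49, 22.92 and 11.92 FPKM in NORMAL skin. Mrc1, the mannose receptor, was at 2.08, 5.62 and 1.16 FPKM in EXO skin, against 4.71, 8.74 and 7.16 FPKM in NORMAL skin. In both genes EXO library 2 was the highest of its group and overlapped with NORMAL. A list of general macrophage genes had 14 of 20 lower and a median of -0.36 that was -0.22, 0.36 and -1.54 in the pairs, -0.82 without the libraries numbered 2 and 0.18 without EXO library 3. Adgre1, which encodes the macrophage antigen F4/80, was at 3.45, 9.57 and 1.18 FPKM in EXO skin, against 1.95, 3.96 and 5.42 FPKM in NORMAL skin. Arg1, an arginase that both macrophages and keratinocytes make, was at 20.41, 24.46 and 62.7 FPKM in EXO skin, against 14.21, 28.23 and 12.22 FPKM in NORMAL skin, and both genes overlapped between the groups.

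Fibroblast genes lay lower for 14 of 22 tested and higher for 8, with a median of -0.48 (-0.09, 0.44 and -1.18 in the pairs). The median was -0.7 without the libraries numbered 2 and -0.05 without EXO library 3. The study's thresholds selected 2 as lower without the block and 4 with it, beside 0.399% and 0.598% of all genes, and none as higher. Dpt, the matrix protein dermatopontin, was at 30.0, 120.77 and 26.54 FPKM in EXO skin, against 103.3, 182.9 and 181.35 FPKM in NORMAL skin. Its EXO library 2 lay above NORMAL library 1, while the log2 difference was -1.69 (SE 0.62) and negative in every pair. Pdgfra, another member, was at 0.44, 0.97 and 0.6 FPKM in EXO skin, against 1.0, 1.84 and 2.36 FPKM in NORMAL skin, without overlap at these low levels. Cd248, the stromal surface protein endosialin, is not in this list, and the rule named it for its separate values. It was at 1.79, 4.97 and 1.71 FPKM in EXO skin, against 8.13, 11.02 and 7.68 FPKM in NORMAL skin. Of the list again, Igfbp6, which binds insulin-like growth factors, was at 17.34, 57.31 and 13.43 FPKM in EXO skin, against 71.54, 135.74 and 31.53 FPKM in NORMAL skin. Pi16, a marker of adventitial fibroblasts, was at 1.24, 9.2 and 0.88 FPKM in EXO skin, against 7.27, 14.89 and 5.16 FPKM in NORMAL skin. Inmt, a methyltransferase of indoleamines, is likewise outside the list and was named for its separate values. It was at 2.94, 21.19 and 1.92 FPKM in EXO skin, against 24.39, 70.98 and 25.38 FPKM in NORMAL skin. Cd248 and Inmt were free of overlap, and Igfbp6 and Pi16 overlapped through EXO library 2.

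Of 5 genes of the fibrotic response that the study assayed, 4 lay lower in EXO skin and none passed a threshold. Col1a1, a chain of the main dermal collagen, was at 19.81, 24.12 and 10.31 FPKM in EXO skin, against 20.56, 23.34 and 34.71 FPKM in NORMAL skin. The log2 difference was -0.55 with a 95% confidence interval of -1.97 to 0.86. Col1a2 gave -0.49 (-1.78 to 0.8) and Fn1, fibronectin, -0.73 (-2.03 to 0.56). Acta2, the smooth muscle actin of myofibroblasts, was at 10.33, 16.44 and 6.19 FPKM in EXO skin, against 5.25, 7.53 and 41.41 FPKM in NORMAL skin. It differed by -0.22 (-1.69 to 1.25), and by 0.62 without NORMAL library 3. Tgfb1, the cytokine that drives collagen synthesis, was at 4.07, 5.16 and 4.83 FPKM in EXO skin, against 3.57, 2.38 and 9.55 FPKM in NORMAL skin (0.05, -0.94 to 1.05). All 5 intervals included 0 and reached -0.94 or lower, and limma gave each an adjusted p of 0.997. Without the libraries numbered 2 all 5 lay lower, by -0.85 for Col1a1, -0.88 for Col1a2, -0.45 for Fn1, -0.85 for Acta2 and -0.35 for Tgfb1. This rested mostly on pair 3, where they differed by -1.66, -1.5, -1.31, -2.56 and -0.86 in the same order. In pair 1 the differences were -0.05, -0.27, 0.41, 0.86 and 0.15.

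Across 22 tested collagens 14 lay higher and 8 lower, with a median of 0.27 that was 0.45 and 0.71 in pairs 1 and 2, -0.52 in pair 3 and 0.01 without the libraries numbered 2. The 4 that reached the study's thresholds in the blocked fit were all higher, beside 3.07% of all genes, and 0 reached them without the block. Among those named by the rule, Col7a1, the anchoring fibril collagen, was at 20.5, 19.13 and 35.33 FPKM in EXO skin, against 13.12, 4.47 and 19.87 FPKM in NORMAL skin, and Col4a6, a basement membrane collagen, was at 3.1, 4.65 and 10.48 FPKM in EXO skin, against 1.69, 0.77 and 4.78 FPKM in NORMAL skin. These are collagens of the basement membrane under the epidermis, not of the dermal fibres. Proteoglycan, matricellular and elastic fibre genes were split evenly (18 of 35 higher, median 0.02). So were collagen-modifying and cross-linking enzymes (12 of 23 higher, median 0.02). Both medians turned negative under quantile and median-ratio scaling. They were -0.43 and 0.11 without the libraries numbered 2. In the first list 1 higher gene, Postn, and 1 lower gene, Dpt, reached the study's thresholds without the block, beside 1.43% and 0.399% of all genes. Their values are given above. Aspn, also of this list, was at 5.34, 12.81 and 6.58 FPKM in EXO skin, against 2.7, 3.51 and 3.65 FPKM in NORMAL skin, without overlap. Loxl1, a lysyl oxidase of elastic fibres, was at 4.1, 6.86 and 2.18 FPKM in EXO skin, against 8.22, 11.61 and 9.24 FPKM in NORMAL skin, without overlap. Plod2, which hydroxylates collagen lysines for cross-links, was at 0.29, 0.39 and 1.24 FPKM in EXO skin, against 1.67, 1.58 and 1.93 FPKM in NORMAL skin, also without overlap. Adamts14, a collagen-modifying enzyme of the same list, went the other way. It was at 6.96, 15.29 and 18.6 FPKM in EXO skin, against 4.71, 3.19 and 8.83 FPKM in NORMAL skin. The log2 difference was 1.14 (SE 0.49), and EXO library 1 lay below NORMAL library 3. Genes of myofibroblasts and smooth muscle lay lower for 10 of 15 (median -0.32, and -0.18 without the libraries numbered 2), with 0 at the study's thresholds in either fit.

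In the signalling lists the members at the study's thresholds were all higher in EXO skin. They numbered 3 of 43 for TGF-beta and BMP, 1 of 53 for Wnt and 2 of 22 for Notch without the block, beside 1.43% of all genes, so the Wnt count was near the share of all genes. With the block they numbered 5, 5 and 3, beside 3.07%. The gene lists share members. Without the block the Wnt gene was Lgr6, and the TGF-beta and BMP genes included Grem1, both also counted in the bulge list. Ski, a repressor of SMAD transcription factors, was at 14.33, 16.05 and 26.42 FPKM in EXO skin, against 1.1, 4.15 and 4.58 FPKM in NORMAL skin, with a log2 difference of 2.3 (SE 0.72). Bmp2, a BMP ligand, was at 12.07, 14.66 and 17.86 FPKM in EXO skin, against 5.62, 3.87 and 8.75 FPKM in NORMAL skin. Neither overlapped. Grem1, a BMP antagonist, and Fst, which binds activins, gave 1.01 (SE 0.44) and 1.18 (SE 0.61). Of the Wnt genes, Rspo3, a ligand of the Lgr receptors, was at 1.4, 2.77 and 3.15 FPKM in EXO skin, against 0.91, 0.63 and 1.07 FPKM in NORMAL skin, without overlap. Its log2 difference of 0.85 fell short of the study's thresholds. Adam17, a protease that sheds TNF and EGF receptor ligands, was at 3.37, 4.44 and 7.47 FPKM in EXO skin, against 0.25, 1.54 and 0.85 FPKM in NORMAL skin (1.7, SE 0.44). Adam10, which makes the first ligand-induced cut of Notch, was at 0.16, 0.78 and 1.96 FPKM in EXO skin, against 3.6, 5.09 and 0.91 FPKM in NORMAL skin. Hey1, a Notch target, was at 2.05, 3.25 and 2.51 FPKM in EXO skin, against 1.14, 0.58 and 0.65 FPKM in NORMAL skin. Adam17 and Hey1 were free of overlap, Adam10 was not, and the pathway genes Ctnnb1 (0.06, interval -1.06 to 1.18) and Hes1 (0.13, -0.94 to 1.21) lay near 0.

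The medians of these lists were 0.23 for TGF-beta and BMP, 0.41 for Wnt and 0.54 for Notch, beside 0.19 for all genes, but in pair 3 they were -0.13, -0.03 and -0.01. Without the libraries numbered 2 they were 0.00 for TGF-beta and BMP and 0.22 for both Wnt and Notch. Under median-ratio scaling the all-gene median of -0.03 stood beside 0.07, 0.2 and 0.33, and beside 0.85 for the basal epidermis, 0.72 for the bulge, -0.65 for fibroblast genes and -1.28 for fast-fibre genes.

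**Figure D4:**
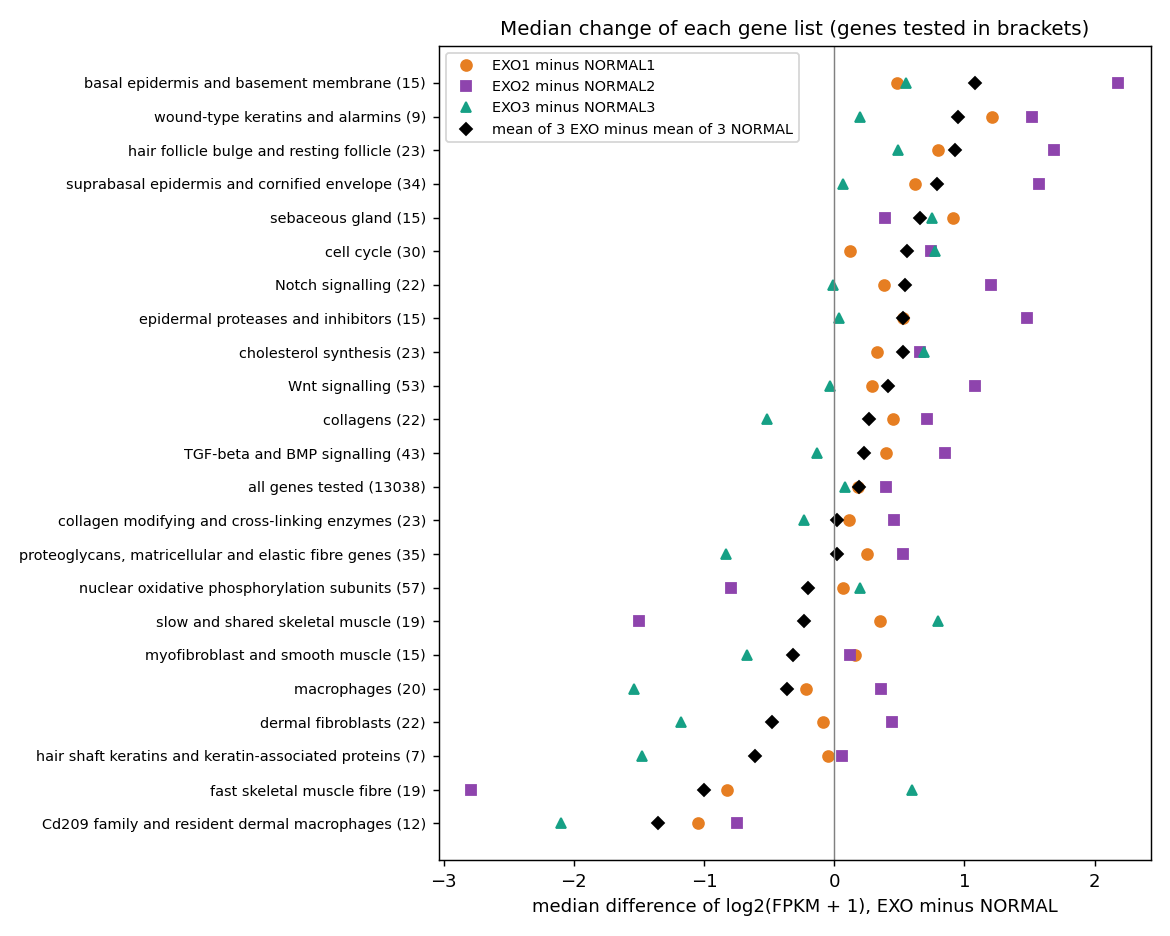
Median log2 difference of each gene list (horizontal axis, EXO minus NORMAL on the log2(FPKM + 1) scale, lists on the vertical axis with the number of tested genes in brackets) from the group means (black diamonds) and in each numbered pair (coloured symbols). Basal epidermis at 1.08 and the bulge at 0.93 lie at the high end and the Cd209 list at -1.35 at the low end, and pair 2 lies farthest out for the epidermal and muscle lists.

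Muscle genes varied widely between libraries of one group. Fast-fibre genes lay lower for 17 of 19, with a median of -1 that was -0.82, -2.79 and 0.6 in the pairs and -0.09 without the libraries numbered 2. Myh4, the myosin of the fastest fibres, was at 88.14, 77.46 and 465.94 FPKM in EXO skin, against 2638.28, 2649.81 and 451.54 FPKM in NORMAL skin, where NORMAL library 3 lay at the level of EXO library 3 and above EXO libraries 1 and 2. A list of slow-fibre genes and genes shared by both fibre types gave a median of -0.23. This median was 0.35, -1.5 and 0.8 in the pairs and 0.43 without the libraries numbered 2, so its sign rested on those libraries. Tnnc1, slow troponin C, was at 194.39, 2.6 and 1.99 FPKM in EXO skin, against 0.66, 0.74 and 0.35 FPKM in NORMAL skin, and Tnnt1, slow troponin T, was at 139.28, 0.66 and 6.5 FPKM in EXO skin, against 3.88, 2.18 and 2.07 FPKM in NORMAL skin. The high mean of each came from EXO library 1. Nuclear oxidative phosphorylation genes lay lower for 52 of 57 by a median of -0.2, and by 0.17 in the other direction without the libraries numbered 2.

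Other genes with separate values, chosen by the smallest p among genes of at least 5 FPKM in a group, had varied roles. Chmp3, a subunit of the ESCRT-III complex that buds vesicles into endosomes, was at 28.59, 38.94 and 39.65 FPKM in EXO skin, against 8.78, 9.63 and 8.51 FPKM in NORMAL skin (1.87, SE 0.44). Cipc, a repressor of the CLOCK transcription factor, was at 10.43, 6.37 and 14.46 FPKM in EXO skin, against 4.08, 0.21 and 0.58 FPKM in NORMAL skin (2.36, SE 0.54). Both had an adjusted p of 0.997 with limma, and of 0.404 and 0.258 with the block. Paqr6, a membrane receptor of the progestin and adipoQ family, was at 5.85, 5.18 and 4.52 FPKM in EXO skin, against 1.94, 1.24 and 2.18 FPKM in NORMAL skin. Ccdc3, a secreted coiled-coil protein, was at 17.38, 27.01 and 44.02 FPKM in EXO skin, against 10.88, 3.22 and 10.89 FPKM in NORMAL skin. Naa60, an N-terminal acetyltransferase that shares its strand with the overlapping Gm20695, was at 13.88, 13.7 and 18.0 FPKM in EXO skin, against 2.59, 8.75 and 4.45 FPKM in NORMAL skin. In each of these the lowest EXO library lay above the highest NORMAL library.

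On the lower side, Akr1c14, a hydroxysteroid dehydrogenase that overlaps Gm18857 on the same strand, was at 1.1, 4.68 and 4.55 FPKM in EXO skin, against 26.54, 57.56 and 7.02 FPKM in NORMAL skin. Its pair 3 differed least, by -0.53, against -3.71 and -3.37 in pairs 1 and 2. Lhfpl1, a tetraspan membrane protein, was at 0.55, 0.92 and 1.49 FPKM in EXO skin, against 6.1, 6.39 and 4.92 FPKM in NORMAL skin. Dbn1, the actin-binding protein drebrin, was at 1.51, 1.94 and 0.86 FPKM in EXO skin, against 3.12, 5.16 and 7.78 FPKM in NORMAL skin. None of these 3 genes overlapped between the groups, and the blocked fit gave adjusted p-values of 0.391 for Akr1c14, 0.32 for Lhfpl1 and 0.469 for Dbn1 (limma). In BLM skin Akr1c14 was at 2.43, 6.64 and 1.82 FPKM and Lhfpl1 at 2.0, 1.02 and 4.2 FPKM, below the lowest NORMAL library. Dbn1, at 3.1, 2.42 and 4.82 FPKM in BLM skin, overlapped with NORMAL skin.

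Some apparent differences lay between entries that share sequence or position. One entry for Sept2, a septin of the cytoskeleton, was at 12.2, 17.49 and 18.53 FPKM in EXO skin, against 1.62, 2.17 and 1.51 FPKM in NORMAL skin. Summed with the second entry of that name, Sept2 stood at 12.2, 17.49 and 18.53 FPKM in EXO skin, against 28.36, 25.93 and 1.51 FPKM in NORMAL skin, with full overlap (exact permutation p = 1.0). Gm2174 was listed at 0 in all EXO libraries, against 3.54, 7.63 and 5.64 FPKM in NORMAL skin, and it overlaps Gm14633 on the opposite strand, which was at 5.02, 7.56 and 5.4 FPKM in EXO skin, against 0.06, 0 and 4.67 FPKM in NORMAL skin. The strand setting of the counting was not given in the sources used here, so the assignment between these 2 entries is uncertain.

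Of the 14 genes that the study followed by PCR, blotting or staining, 6 did not reach 1 FPKM in 3 libraries (Cd4, Cd8a, Il10, Il6, Lef1 and Tnf). Il6, the cytokine interleukin-6, was listed at 0 in 5 of the 6 libraries, and Lef1, a Wnt transcription factor, was at 0.16, 0.11 and 1.06 FPKM in EXO skin, against 0.14, 0 and 1.63 FPKM in NORMAL skin. Shh, the hair-growth signal sonic hedgehog, was at 0.29, 0 and 0.26 FPKM in EXO skin, against 0.15, 0 and 0.22 FPKM in NORMAL skin. At these levels differences were not detectable, and no fold change is given.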

How the data were processed

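RNA of whole mouse skin was measured as FPKM by the authors, who deposited 1 table of 55382 genes for 9 libraries. The submitters' notes name cutadapt, HISAT2 2.0.4, StringTie 1.3.4d and the mm9 build; the strand setting was not given in the sources used here. The deposited FPKM values carry no counts, so no count test was run and depth intervals could not be given. Columns were matched to samples by title. The value log2(FPKM + 1) was fitted with limma 3.58.1 in R 4.3.3 (trend, 9 libraries, a mean per group), with two-sided p-values adjusted by Benjamini-Hochberg over 13038 genes at 0.05. Fold changes on this scale understate the change of low genes. Single values were compared by exact two-sided permutation (SciPy 1.17.1). The fit was tested on simulated data.

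Libraries with the same number in their titles mostly deviated together. Over all 9 libraries, correlations of deviations from the group means were 0.135 to 0.613 for the 9 same-number pairs and -0.518 to 0.145 for the 18 others. These ranges overlapped slightly. By Spearman correlation of FPKM, EXO libraries 1 and 3 were closest to the NORMAL library of their number (0.903 and 0.886). EXO library 2 was closer to NORMAL library 3 (0.836) than to NORMAL library 2 (0.79). No label says what a number stands for, so blocked values are given beside the unblocked ones. Coordinates are GENCODE M21 (GRCm38), by gene identifier (99.56% matched). Genes are named by a rule: the 12 in each direction with the smallest p, separate values and at least 5 FPKM in a group, up to 4 members per list, genes called with the block, and genes the study assayed; 1 gene that the rule names is not reported here. The members and the lists were chosen with earlier results of these data known, and 3 lists (hepatocytes, Cd209 family, epidermal proteases and inhibitors) after the values themselves were seen. Alternatives covered normalisation, pseudocount, filters, variance model, block, the libraries numbered 2 and single libraries, of which the blocked fit without the libraries numbered 2 was chosen after seeing the data.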

Additional observations from a re-analysis of the deposited data

How the results depend on the processing

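Of 107 named genes 100 kept their direction under the alternatives that gave them a value. Many of these genes were chosen for a small p or for separate values, which cannot turn sign when 1 library is left out. Alternatives that changed only the block, the variance model or the use of BLM left the difference as it was. This count was therefore largely fixed by the choice of genes and is no test. Genes past the adjusted threshold numbered 0 except with a pseudocount of 0.1 (1, Gm2174, limma adjusted p = 0.0154), with the replicate block (4), with the replicate block after rescaling without mitochondrial, ribosomal RNA and muscle transcripts (1, Plac9b, limma adjusted p = 0.0447) and without single libraries (0 to 2). At the study's thresholds 238 genes became 125 with a filter at 5 FPKM, 478 with the replicate block, 453 with the block on 6 libraries only, and 130 to 1450 without single libraries. Genes with an interval within -1 and 1, 2224 of 13038, numbered 301 after rescaling to the same total, 5913 with quantile normalisation, 5490 with median-ratio scaling, 4397 when rescaled without those transcripts, 506 with a pseudocount of 0.1, 17677 without a filter, 899 with the filter at 5 FPKM, 5509 with the block, 5373 with the block on 6 libraries, 6657 with the block and rescaling, 5051 with the block and without the libraries numbered 2, and 490 to 1039 without single libraries. The cause was not tested, beyond the smaller number of genes under a stricter filter and the larger one with none.

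Values near 0 turned sign. Tgfb1 (0.05) gave -0.17 with quantile normalisation, -0.15 with median-ratio scaling, -0.02 when rescaled without those transcripts with or without the block, -0.35 without the libraries numbered 2 with or without the block, and -0.29 to 0.53 without single libraries. Adgre1 (0.04) gave -0.12, -0.14, -0.02 and -0.48 under the same 4 changes, -0.02 with a pseudocount of 0.1, and -0.55 to 0.59 without single libraries. Ctnnb1 (0.06) gave -0.00362, -0.22, -0.03 and -0.12, and -0.22 to 0.57 without single libraries. Hes1 (0.13) gave -0.01, -0.13 and -0.15 with quantile normalisation, median-ratio scaling and without the libraries numbered 2, and -0.19 to 0.56 without single libraries. Without single libraries Acta2 (-0.22) ran over -0.76 to 0.62, Scd3 (1.06) over -0.17 to 1.82 and Tnnt1 (1.73) over -0.04 to 3.16. List medians moved by less than the replicate spread, the SD of the pair medians, in 443 combinations of list and setting and by more in 19. That spread was wide. The suprabasal median of 0.79 counted as unmoved at 0.22 without NORMAL library 2. Settings that changed only the block, the variance model or the use of BLM could not move a median. These counts therefore say little about the stability of the medians. Blocked and unblocked fits gave the same differences, and the block changed no call beyond the 4 genes named above. The FPKM values carry no counts and library depth was only roughly estimated, so the counting error of a gene is not given.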

Other observations

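Of 20 tested adipocyte genes 14 lay higher and 6 lower in EXO skin, near the share of all genes, of which 8900 of 13038 lay higher. The median log2 difference of the list was 0.32, beside 0.19 over all genes. The list median was 0.38, 0.73 and 0.02 in the pairs, 0.15 without the libraries numbered 2 and 0.08 under median-ratio scaling. The summed FPKM of the list, which abundant genes weigh most, did not follow that direction in pairs 1 and 2. It was 1552.5, 1268.8 and 1018.1 FPKM in EXO skin, against 2756.1, 3783.0 and 876.8 FPKM in NORMAL skin. The Y-linked gene Eif2s3y was at 0, 0.11 and 0 FPKM in EXO skin, against 0, 2.0 and 0 FPKM in NORMAL skin, though the mice were described as female. The libraries numbered 2 also shared 152 genes that stood at least 4-fold above every other library, 97 of them processed pseudogenes and 30 of them among the genes tested.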
